A study of Mus musculus with 12 samples.

Results

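Expression of 10 endothelial and angiogenic genes was followed in mouse hearts after ischemia/reperfusion (I/R) with or without vitamin B12. The genes were chosen by symbol, with earlier results of these data known. They are the growth factor Vegfa, its receptors Kdr and Flt1, the angiopoietins Angpt1 and Angpt2 with the receptors Tek and Tie1, the secreted protein Angptl4, and the junction genes Pecam1 and Cdh5. Each had 1 row in a table of 55487 genes, and all 10 were among the 13001 genes that passed the filter on low values (FPKM of at least 1 in at least 3 libraries). Poly(A) RNA from hearts of wild-type (WT) mice was sequenced in 12 libraries, 3 in each of 4 groups. In the I/R+B12 group, mice drank water with 50 mg/L of vitamin B12 for 7 days, with an intake of about 4 mL a day, before the left anterior descending coronary artery was closed for 45 min and reperfused for 24 h. The I/R group had the same occlusion on normal water. The Sham+B12 group had the surgery without occlusion after B12 water, and the Sham group had it on normal water. The strain, age and sex of the mice and the sampled region of the heart are not given in the sources used here.

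Vegfa is a secreted factor that drives endothelial growth and vessel permeability through the receptor tyrosine kinase encoded by Kdr, while Flt1 binds it tightly and acts largely as a decoy. Angpt1, made mainly by mural and other perivascular cells, activates the TIE2 receptor encoded by Tek and keeps vessels quiescent, whereas Angpt2, released by activated endothelium, can oppose it in a context-dependent way. Tie1 encodes a related receptor that pairs with TIE2. In the heart, endothelial cells line a dense capillary bed, and Pecam1 and Cdh5 encode adhesion molecules of their junctions. Pecam1 is also carried by platelets and by several leukocyte types.

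The promoters of the 4 receptor genes are shown because Kdr, Tek and Tie1 had negative differences and Flt1 a positive one between I/R+B12 and Sham+B12 hearts, though none passed the test. The sequences run from 250 bases before to 50 bases after the RefSeq gene start, 5′ to 3′ in the direction of the gene. They are on GRCm38.p6, the patch release of the build mm10. The GENCODE gene coordinates given below place the start of Tie1 further upstream, at 118490061, so most of the Tie1 sequence lies inside that gene. Capitals mark GGAAG, the core of ETS factor motifs, and GGGCGG, the GC box of SP and KLF factors, each searched on both strands, so that CTTCC and CCGCCC are the same motifs on the other strand. The table held promoters for 5 of the 10 genes (these 4 and Vegfa).
Kdr, chr5:75978406-75978705, minus strand: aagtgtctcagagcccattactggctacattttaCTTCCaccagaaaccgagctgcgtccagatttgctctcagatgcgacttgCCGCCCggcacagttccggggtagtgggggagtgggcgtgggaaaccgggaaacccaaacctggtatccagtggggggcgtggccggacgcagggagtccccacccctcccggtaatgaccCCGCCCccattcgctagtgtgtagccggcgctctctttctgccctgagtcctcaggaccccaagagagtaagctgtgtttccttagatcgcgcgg
Flt1, chr5:147725962-147726261, minus strand: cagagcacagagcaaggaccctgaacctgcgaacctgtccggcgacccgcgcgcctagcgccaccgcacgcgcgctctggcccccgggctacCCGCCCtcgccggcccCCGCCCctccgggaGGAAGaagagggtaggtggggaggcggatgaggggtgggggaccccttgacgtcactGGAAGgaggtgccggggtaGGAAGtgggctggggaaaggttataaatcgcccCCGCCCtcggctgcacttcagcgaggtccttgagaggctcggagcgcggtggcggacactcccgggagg
Tek, chr4:94739039-94739338, plus strand: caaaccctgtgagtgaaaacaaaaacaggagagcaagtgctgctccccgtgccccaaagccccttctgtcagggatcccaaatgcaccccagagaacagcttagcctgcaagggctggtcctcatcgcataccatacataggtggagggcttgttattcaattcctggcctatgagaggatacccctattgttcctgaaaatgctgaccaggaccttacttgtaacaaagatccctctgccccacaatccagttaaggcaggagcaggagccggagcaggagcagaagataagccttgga
Tie1, chr4:118489800-118490099, minus strand: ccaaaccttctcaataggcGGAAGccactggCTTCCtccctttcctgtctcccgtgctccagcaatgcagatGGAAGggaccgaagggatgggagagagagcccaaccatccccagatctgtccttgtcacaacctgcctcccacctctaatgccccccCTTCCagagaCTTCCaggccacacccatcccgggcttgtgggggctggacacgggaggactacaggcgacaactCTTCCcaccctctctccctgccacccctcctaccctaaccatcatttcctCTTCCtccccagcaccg
Kdr had 1 GGAAG and 2 GGGCGG, Flt1 had 3 of each, Tie1 had 7 GGAAG and 0 GGGCGG, and Tek had 0 of both, with no overlap between matches. Of 32851 mouse promoters of the same length, 71.4% held GGAAG and 35.7% held GGGCGG, so a match is common and is given as a description.

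Expression is in FPKM, fragments counted per length of transcript and per number of mapped fragments, and differences are log2 differences of FPKM + 1, which understate the change of genes near 1 FPKM such as Angpt2. A difference was called at an adjusted p under 0.05 (limma with Benjamini-Hochberg adjustment over the 13001 genes). Depth was estimated from the spacing of low values at 24.25M to 29.0M fragments a library, and 11490 to 12612 genes reached 1 FPKM. Cardiomyocyte markers (10 of 10 tested) summed to 40804, 43563 and 58398 FPKM in I/R+B12 hearts, 37994, 37931 and 53344 FPKM in I/R hearts, 55263 to 61518 FPKM in Sham+B12 hearts and 53592 to 60075 FPKM in Sham hearts. All 10 had negative I/R differences under B12, on normal water and averaged, with medians of -0.29, -0.28 and -0.29, and 0 were called (3, 3 and 6 had an unadjusted p under 0.05). FPKM is a share of all RNA in a library, and the part of this in the endothelial values was not tested. The libraries labelled Sham 3 and I/R 3 stood apart from their groups. Neutrophil markers (7 of 8 tested, Ly6g not) summed to 14.6 FPKM in I/R 3, against 1241 and 1198 FPKM in I/R 1 and I/R 2. They summed to 67 FPKM in Sham 3, against 6.25 and 10.8 FPKM in Sham 1 and Sham 2, and atrial markers reached 3161 FPKM in Sham 3. The I/R 3 sum lay within the range of the sham libraries, and the Sham 3 sum was the highest of the sham libraries but far under I/R 1 and I/R 2. The labels were kept as given. Whether these 2 libraries were exchanged was not tested, and every value on normal water or averaged over water rests on their labels. The labels number the samples of a group but do not say whether each came from a separate animal, so p-values measure the spread between these samples. In whole-heart RNA, fewer cells of a type and less RNA per cell cannot be told apart.

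Pecam1 and Cdh5 were the most abundant of the 10 genes in every group, and both angiopoietins the least. In Sham hearts Pecam1 averaged 100 ± 11.3 FPKM and Cdh5 100 ± 19.9 FPKM, with overlapping values, followed by Tie1 at 47.4 ± 8.8 FPKM with none in common with them. Vegfa at 35.8 ± 0.87 FPKM, Kdr at 34.9 ± 8.25 FPKM, Angptl4 at 34.8 ± 35.5 FPKM and Flt1 at 29.1 ± 6.63 FPKM formed a run in which each overlapped the next. Tek followed at 20 ± 4.62 FPKM, then Angpt1 at 5.63 ± 1.8 FPKM and Angpt2 at 1.36 ± 0.613 FPKM (SD, n = 3 each), each step without overlap. In I/R+B12 hearts Pecam1 at 150 ± 17.5 FPKM stood above Cdh5 at 118 ± 9.87 FPKM with no overlap, the only group in which the values of this pair separated. There, Angpt1 at 3.8 ± 5.54 FPKM and Angpt2 at 2.72 ± 0.771 FPKM overlapped, which they did in no other group. Across the 12 libraries Cdh5 varied least, 1.65-fold between lowest and highest, and Angptl4 and Angpt1 most, 26.1-fold and 23.7-fold.

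**Figure D1:**
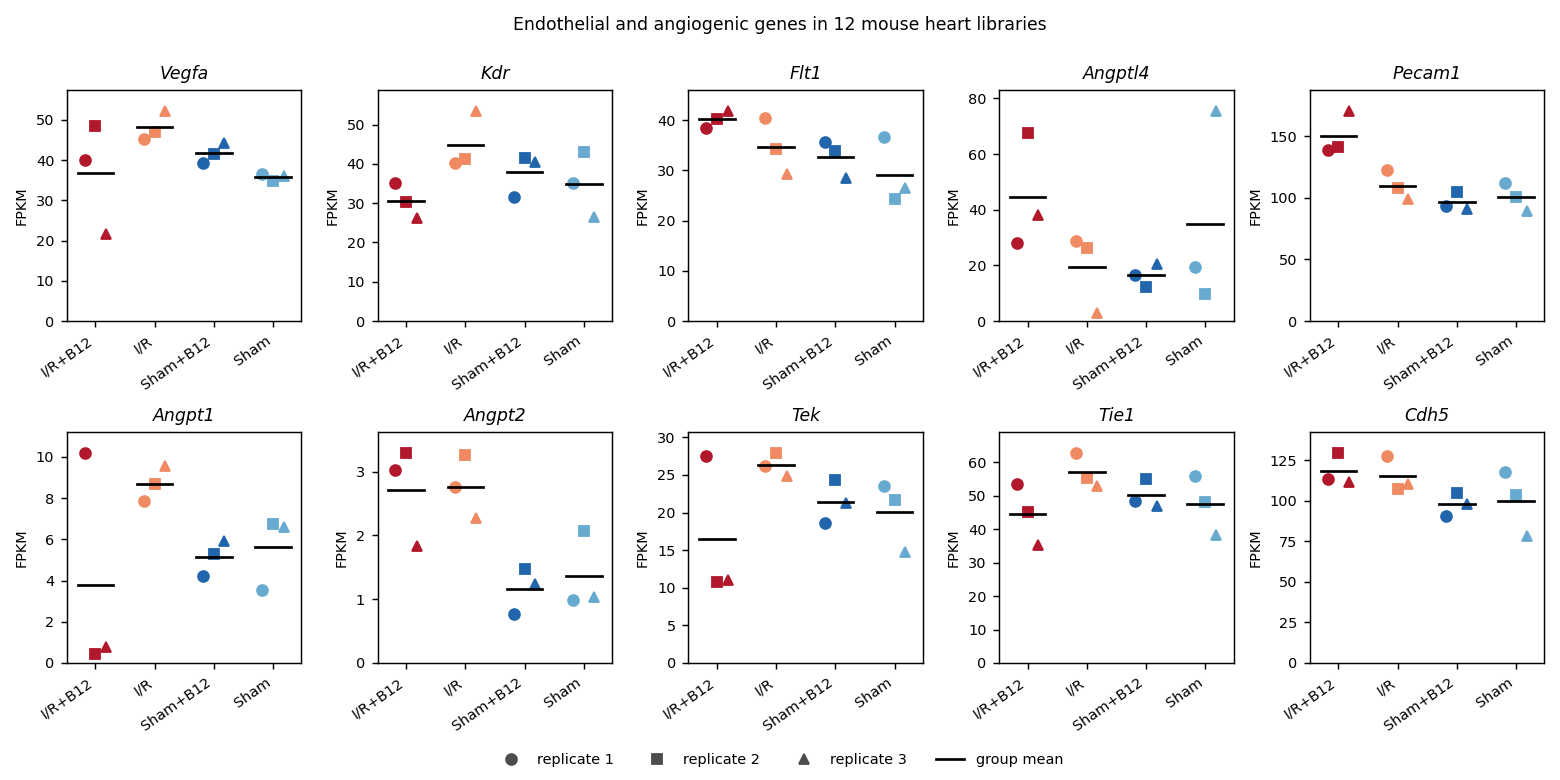
FPKM (linear axis starting at 0, a separate scale for each gene) of the 10 genes in 12 heart libraries. Each point is a library, its shape the replicate number, and the line is the group mean of 3. Pecam1 lies between 139.12 and 170.28 FPKM in I/R+B12, above the other 9 libraries, while Angpt1 and Tek of I/R+B12 split into 1 high and 2 low libraries.

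Of the 10 genes, Pecam1 was called higher in I/R+B12 than in Sham+B12 hearts, and Angpt2 and Pecam1 were called higher after I/R averaged over both waters. No gene of the 10 was called in the other contrasts. With B12, I/R called 1 of the 10 and 10.4% of all genes. The averaged contrast, which shares all its libraries with the separate ones, called 2 of the 10 and 10.1% of all genes. Counts of 1 or 2 in 10 are near these background shares. I/R against Sham called 0 of the 10 and 0% of all genes, with 1 of the 10 and 11.7% of all genes at an unadjusted p under 0.05. I/R+B12 against I/R called 0 of the 10 and 0% of all genes, with 4 of the 10 and 28.5% at an unadjusted p under 0.05. The interaction, which subtracts the I/R effect on normal water from that under B12, called 0 of the 10 and 0% of all genes, with 2 of the 10 (Kdr and Pecam1) and 12.3% of all genes at an unadjusted p under 0.05. Sham+B12 against Sham called 0 of the 10 and 0% of all genes, and 0 of the 10 and 1.69% had an unadjusted p under 0.05. The median log2 difference of the 10 genes was 0.32 for I/R against Sham, beside 0.13 over all genes, 0.04 for I/R+B12 against Sham+B12, beside -0.02, and 0.16 averaged over water, beside 0.05. For I/R+B12 against I/R these medians were -0.20 and -0.21. With median-ratio scaling, the medians over all genes moved by more than 0.1 in 3 contrasts, to 0.004 for I/R against Sham, 0.000 between I/R+B12 and I/R, and -0.002 for the interaction (-0.14 before scaling), and changes there are relative to that shift.

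**Figure D2:**
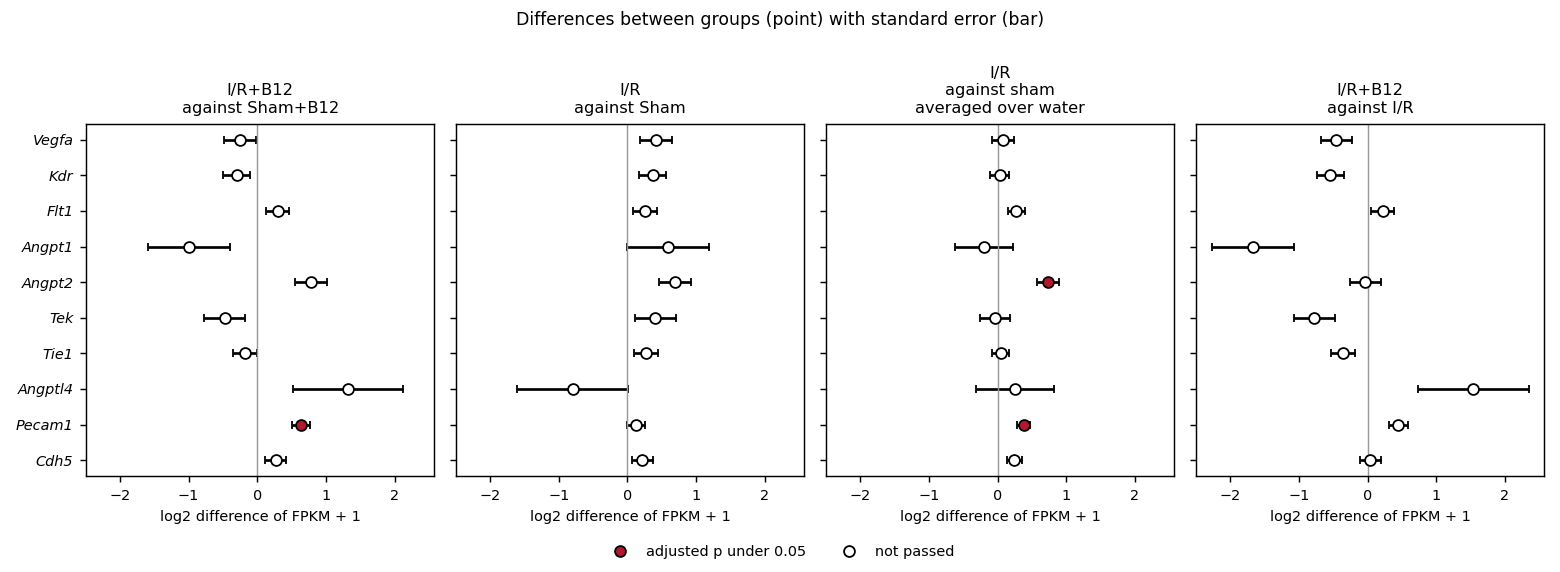
Log2 differences of FPKM + 1 (point) with standard error (bar) for the 10 genes in 4 contrasts, on 1 shared axis. Filled points passed an adjusted p under 0.05 in limma. Pecam1 is filled in I/R+B12 against Sham+B12 and, with Angpt2, in the contrast averaged over water.

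Vegfa (ENSMUSG00000023951, chr17:46016993-46032369, minus strand) is the main vessel growth factor of the list. It had 40.14, 48.51 and 21.55 FPKM in I/R+B12 hearts, 45.18, 47.04 and 52.2 FPKM in I/R hearts, 39.23, 41.51 and 44.31 FPKM in Sham+B12 hearts, and 36.52, 34.84 and 36.07 FPKM in Sham hearts. All 3 I/R hearts lay above all 3 Sham hearts, as did all 3 Sham+B12 hearts, while I/R+B12 3 was the lowest of the 12 and the I/R+B12 group overlapped each of the others. The log2 difference was 0.41 for I/R against Sham (SE 0.23, limma adjusted p = 0.474), -0.25 for I/R+B12 against Sham+B12 (adjusted p = 0.465) and -0.45 for I/R+B12 against I/R (adjusted p = 0.21). None passed the threshold.

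Angpt2 (ENSMUSG00000031465, chr8:18690263-18741562, minus strand), the angiopoietin of activated endothelium, rose after I/R over both waters. It had 3.02, 3.29 and 1.84 FPKM in I/R+B12 hearts against 0.77, 1.47 and 1.23 FPKM in Sham+B12 hearts, and 2.75, 3.26 and 2.27 FPKM in I/R hearts against 0.98, 2.07 and 1.04 FPKM in Sham hearts. In each water every I/R library lay above every sham library, with means 2.35-fold and 2.02-fold as high. The averaged log2 difference was 0.73 (SE 0.16, limma adjusted p = 0.0276). The separate ones were 0.78 under B12 (SE 0.23, adjusted p = 0.052) and 0.69 on normal water (SE 0.23, adjusted p = 0.382), and the interaction was 0.09 (adjusted p = 0.918). Between I/R+B12 and I/R the log2 difference was -0.03 (adjusted p = 0.94). The averaged call held in 6 of the 12 fits that left out 1 library. It was lost without I/R+B12 2 (adjusted p = 0.0505), I/R 1 (0.0773), I/R 2 (0.083), Sham+B12 1 (0.0803), Sham+B12 3 (0.0712) or Sham 1 (0.0803), with the direction kept in each. The difference under B12 passed without I/R+B12 3, at 0.96 (adjusted p = 0.0333).

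Angpt1 (ENSMUSG00000022309, chr15:42424723-42676977, minus strand), the TIE2 agonist, split the I/R+B12 group. It had 10.19, 0.43 and 0.78 FPKM in I/R+B12 hearts, 7.85, 8.71 and 9.56 FPKM in I/R hearts, 4.2, 5.27 and 5.9 FPKM in Sham+B12 hearts, and 3.55, 6.75 and 6.58 FPKM in Sham hearts. I/R+B12 1 held the highest value of all 12 libraries and I/R+B12 2 and 3 the lowest, by estimate 11.8 and 22 fragments per kb against 247 in I/R+B12 1. The 3 I/R hearts lay above the 3 Sham hearts, 1.55-fold by the means, with a log2 difference of 0.59 (SE 0.60, limma adjusted p = 0.695). The differences were -0.99 for I/R+B12 against Sham+B12 (adjusted p = 0.268) and -1.67 for I/R+B12 against I/R (SE 0.60, adjusted p = 0.114), neither past the threshold. Leaving out I/R+B12 1 gave -1.93 (adjusted p = 0.000956) and -2.60 (adjusted p = 0.000194), so 1 library decides these calls. The same holds for the averaged difference, -0.20 with all libraries (adjusted p = 0.774) and -0.67 without that one (adjusted p = 0.0192), and for the interaction, -1.58 (adjusted p = 0.431) and -2.52 (adjusted p = 0.00363). Without I/R+B12 1, 3833, 4409, 2701 and 1840 of 12906 genes were called in these contrasts, in that order, so the change was not particular to Angpt1. Markers of pericytes and smooth muscle (10 of 10 tested), cells that make Angpt1, summed to 341, 261 and 265 FPKM in I/R+B12 hearts, 411, 372 and 436 FPKM in I/R hearts, 331, 351 and 350 FPKM in Sham+B12 hearts and 420, 362 and 255 FPKM in Sham hearts. Of these 10 markers, 2 were called lower in I/R+B12 than in Sham+B12 hearts, beside 3.62% of all genes. Between I/R+B12 and I/R, 0 were called and 6 had an unadjusted p under 0.05, all lower, beside 28.5% of all genes in either direction. The part of these cells in the Angpt1 values was not tested.

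Angptl4 (ENSMUSG00000002289, chr17:33773750-33781830, minus strand) encodes a secreted inhibitor of lipoprotein lipase that is a target of PPAR and hypoxia signalling and bears on vessel permeability. It had 27.87, 67.48 and 38.02 FPKM in I/R+B12 hearts, 28.85, 26.2 and 2.89 FPKM in I/R hearts, 16.62, 12.14 and 20.61 FPKM in Sham+B12 hearts, and 19.39, 9.66 and 75.43 FPKM in Sham hearts. Every I/R+B12 library lay above every Sham+B12 library, while both groups on normal water spanned wide ranges set by I/R 3 and Sham 3, the lowest and the highest of the 12. The log2 difference was 1.32 for I/R+B12 against Sham+B12 (SE 0.80, limma adjusted p = 0.276), -0.80 for I/R against Sham (SE 0.80, adjusted p = 0.692) and 1.54 for I/R+B12 against I/R (adjusted p = 0.227). Without I/R 3 and Sham 3 the normal-water difference turned to 0.95 but did not pass (adjusted p = 0.284). The difference under B12 then passed at an unchanged 1.32 (adjusted p = 0.0381), and the averaged one passed at 1.13 (adjusted p = 0.0232). The difference of I/R+B12 against I/R was then 0.58 (adjusted p = 0.354).

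Kdr (ENSMUSG00000062960, chr5:75932827-75978458, minus strand), the main signalling receptor for Vegfa, had 35.09, 30.25 and 26.13 FPKM in I/R+B12 hearts, 40.2, 41.18 and 53.44 FPKM in I/R hearts, 31.61, 41.53 and 40.5 FPKM in Sham+B12 hearts, and 35.18, 43.01 and 26.51 FPKM in Sham hearts. All 3 I/R+B12 libraries lay below all 3 I/R libraries, at 0.678 times their mean, and every other pair of groups overlapped. The log2 difference of I/R+B12 against I/R was -0.54 (SE 0.20, limma adjusted p = 0.115). Without I/R+B12 1 it was -0.65 (adjusted p = 0.0397), in a fit that called 4409 of 12906 genes for that contrast. With all libraries, the log2 difference was -0.30 for I/R+B12 against Sham+B12 (adjusted p = 0.298) and 0.37 for I/R against Sham (adjusted p = 0.459). Without I/R 3 and Sham 3 the last was 0.063 (adjusted p = 0.894) and the averaged difference, 0.03 with all libraries, was -0.12.

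Flt1 (ENSMUSG00000029648, chr5:147561604-147726011, minus strand), the decoy receptor, had differences of the opposite sign to those of Kdr in both contrasts of I/R+B12, none past the threshold. It had 38.47, 40.15 and 41.77 FPKM in I/R+B12 hearts, 40.49, 34.14 and 29.18 FPKM in I/R hearts, 35.59, 33.93 and 28.42 FPKM in Sham+B12 hearts, and 36.65, 24.22 and 26.43 FPKM in Sham hearts. The I/R+B12 libraries were tightly grouped and lay above all Sham+B12 libraries, 1.23-fold by the means. The log2 difference was 0.30 for I/R+B12 against Sham+B12 (SE 0.17, limma adjusted p = 0.252), 0.25 for I/R against Sham (adjusted p = 0.547) and 0.22 for I/R+B12 against I/R (adjusted p = 0.409), the last being 0.11 without I/R 3 and Sham 3. The table is by gene, so the soluble and membrane forms of Flt1 were not separated.

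Tek (ENSMUSG00000006386, chr4:94739289-94874976, plus strand), which encodes TIE2, had 27.59, 10.82 and 11.09 FPKM in I/R+B12 hearts, 26.16, 27.92 and 24.93 FPKM in I/R hearts, 18.56, 24.27 and 21.31 FPKM in Sham+B12 hearts, and 23.54, 21.73 and 14.79 FPKM in Sham hearts. As for its ligand Angpt1, I/R+B12 1 was high and I/R+B12 2 and 3 were the lowest of the 12, and the 3 I/R libraries lay above the 3 Sham libraries, 1.32-fold by the means. The log2 difference was -0.48 for I/R+B12 against Sham+B12 (limma adjusted p = 0.287), 0.40 for I/R against Sham (adjusted p = 0.585, and 0.25 without I/R 3 and Sham 3) and -0.77 for I/R+B12 against I/R (SE 0.30, adjusted p = 0.129). Without I/R+B12 1 the first and the last of these passed, at -0.90 (adjusted p = 0.00725) and -1.19 (adjusted p = 0.00158), as did the interaction at -1.30 (adjusted p = 0.0124), which was -0.88 with all libraries (adjusted p = 0.411). That fit called 3833, 4409 and 1840 of 12906 genes in these contrasts, in the same order.

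Tie1 (ENSMUSG00000033191, chr4:118471191-118490061, minus strand), the partner of TIE2, varied less between libraries than Tek, 1.78-fold against 2.58-fold. It had 53.42, 45.11 and 35.2 FPKM in I/R+B12 hearts, 62.82, 55.3 and 52.87 FPKM in I/R hearts, 48.41, 54.92 and 47.07 FPKM in Sham+B12 hearts, and 55.85, 48.12 and 38.3 FPKM in Sham hearts. In each of the contrasts between single groups the values overlapped. Its log2 differences were -0.18 for I/R+B12 against Sham+B12 (limma adjusted p = 0.488), 0.27 for I/R against Sham (adjusted p = 0.526, and 0.18 without I/R 3 and Sham 3) and -0.36 for I/R+B12 against I/R (adjusted p = 0.191). The last passed without I/R+B12 1, at -0.50 (adjusted p = 0.0484), in a fit that called 4409 of 12906 genes for that contrast.

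Pecam1 (ENSMUSG00000020717, chr11:106654217-106750628, minus strand), which encodes the adhesion molecule CD31, rose after I/R under B12. It had 139.12, 140.85 and 170.28 FPKM in I/R+B12 hearts, 122.28, 107.89 and 98.77 FPKM in I/R hearts, 93.6, 104.58 and 90.93 FPKM in Sham+B12 hearts, and 111.57, 100.35 and 88.96 FPKM in Sham hearts. All 3 I/R+B12 libraries lay above the other 9, and I/R overlapped Sham, as Sham+B12 did. The mean was 1.56-fold that of Sham+B12 hearts, with a log2 difference of 0.63 (SE 0.13, limma adjusted p = 0.0259). The averaged difference was 0.38 (SE 0.09, adjusted p = 0.0351), that of I/R+B12 against I/R was 0.45 (SE 0.13, adjusted p = 0.0919, and 0.0253 without I/R+B12 1), and that of I/R against Sham was 0.13 (adjusted p = 0.702). Without I/R+B12 1, 4409 of 12906 genes were called between I/R+B12 and I/R. The interaction was 0.50 (SE 0.19, limma adjusted p = 0.401). The call under B12 held in 8 of 12 fits that left out 1 library, with adjusted p between 0.00854 and 0.101, and was lost without I/R+B12 2 (0.0652), Sham+B12 1 (0.0995), Sham+B12 2 (0.0616) or Sham+B12 3 (0.101). The averaged call held in 5 of 12 and was lost without I/R 1 (adjusted p = 0.0954), I/R 2 (0.091), Sham+B12 1 (0.0917), Sham+B12 2 (0.0502), Sham+B12 3 (0.089), Sham 1 (0.0745) or Sham 2 (0.0627).

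Other cells that carry Pecam1 were measured in the same libraries. Neutrophil markers summed to 741, 2037 and 107 FPKM in I/R+B12 hearts, against 0.86, 34.2 and 5.73 FPKM in Sham+B12 hearts. Platelet markers (4 of 5 tested, Gp1bb not) summed to 118, 240 and 17.7 FPKM in I/R+B12 hearts, against 49.7, 102 and 56 FPKM in Sham+B12 hearts. Macrophage markers (9 of 9 tested) summed to 649, 241 and 302 FPKM in I/R+B12 hearts, against 494, 822 and 595 FPKM in Sham+B12 hearts. No marker of these 3 lists was at 0 in all libraries. Pecam1 was highest in I/R+B12 3, the library with the lowest neutrophil sum of its group and the lowest platelet sum of the 12. The part of these cells in the Pecam1 values was not tested.

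Cdh5 (ENSMUSG00000031871, chr8:104101625-104144511, plus strand), which encodes VE-cadherin of endothelial junctions, had 113.35, 129.61 and 111.79 FPKM in I/R+B12 hearts, 127.67, 107.38 and 110.51 FPKM in I/R hearts, 90.89, 105.03 and 97.99 FPKM in Sham+B12 hearts, and 117.81, 103.67 and 78.46 FPKM in Sham hearts. Every I/R+B12 library lay above every Sham+B12 library, 1.21-fold by the means, and the groups on normal water overlapped. The log2 difference was 0.27 for I/R+B12 against Sham+B12 (SE 0.15, limma adjusted p = 0.239), 0.22 for I/R against Sham (adjusted p = 0.556, and 0.083 without I/R 3 and Sham 3) and 0.04 for I/R+B12 against I/R (adjusted p = 0.882).

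By overlap, 5 of the 10 genes (Flt1, Angpt2, Angptl4, Pecam1 and Cdh5) had all I/R+B12 libraries above all Sham+B12 libraries, beside 19.1% of all genes apart in that direction (13.2% in the other). On normal water 4 genes (Vegfa, Tek, Angpt1 and Angpt2) had all I/R libraries above all Sham libraries, beside 18.8% of all genes in that direction and 3.60% in the other. Between I/R+B12 and I/R, Pecam1 was higher and Kdr lower without overlap, 1 of the 10 each way, beside 4.41% of all genes higher and 18.8% lower. Between Sham+B12 and Sham, Vegfa alone was apart, at 1.16-fold higher, beside 1.54% of all genes higher and 8.98% lower. The Sham+B12 against Sham log2 differences of the 10 genes ran from -0.58 (Angptl4) to 0.21 (Vegfa), each with a limma adjusted p of 0.999.

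Ratios within a library compare partners free of the library's scale. Kdr to Pecam1 was 0.252, 0.215 and 0.153 in I/R+B12 hearts, and between 0.298 and 0.541 in the other 9 libraries. Less Kdr was found per unit of Pecam1 in each I/R+B12 library than in any other. Angpt2 to Angpt1 was 0.296, 7.65 and 2.36 in I/R+B12 hearts, 0.35, 0.374 and 0.237 in I/R hearts, 0.183, 0.279 and 0.208 in Sham+B12 hearts, and 0.276, 0.307 and 0.158 in Sham hearts. I/R+B12 2 and 3 were the only libraries with more Angpt2 than Angpt1 per length. Flt1 to Kdr was 1.1, 1.33 and 1.6 in I/R+B12 hearts, against 1.01, 0.829 and 0.546 in I/R hearts, and between 0.563 and 1.13 in the sham hearts. Tek to Tie1 was 0.516, 0.24 and 0.315 in I/R+B12 hearts and between 0.383 and 0.505 in the others. Cdh5 to Pecam1 was 0.815, 0.92 and 0.657 in I/R+B12 hearts and between 0.882 and 1.12 in the others.

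The ratios were tested for I/R against sham and for B12 against normal water by an exact two-sided permutation test that kept the other factor fixed, with 400 arrangements, a smallest possible p of 0.005 and adjustment over 10 tests. The lowest was Angpt2 to Angpt1 for I/R against sham, with a mean log2 ratio higher by 1.70 (exact permutation p = 0.03, adjusted p = 0.3). None of the 10 passed after adjustment, and the others had adjusted p between 0.388 and 0.63. This test averages over the other factor and does not test the I/R+B12 group alone.

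**Figure D3:**
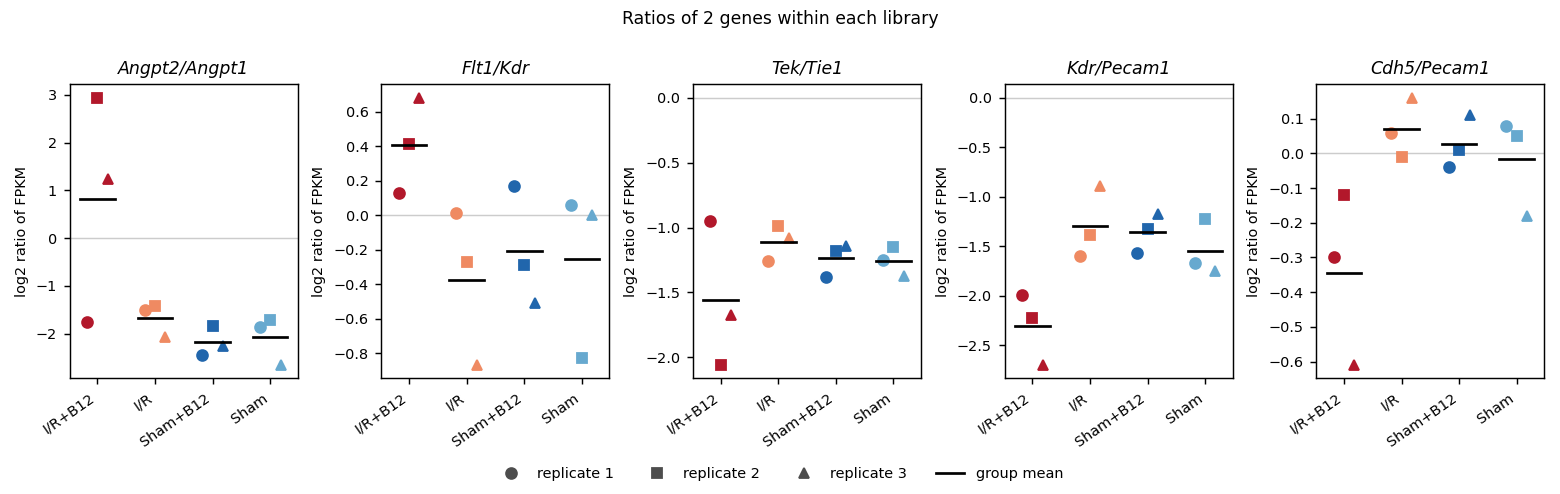
Log2 ratio of the FPKM of 2 genes within each library, for 5 pairs. Each point is a library, its shape the replicate number, and the line is the group mean of 3. Kdr/Pecam1 of I/R+B12 lies at -1.99 to -2.70, below the other 9 libraries, and Angpt2/Angpt1 exceeds 0 in I/R+B12 2 and 3.

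The genes most like each of the 10 were found by Pearson's r of log2(FPKM + 1) over the 12 libraries, which share group, depth and composition, so r is a description. Angpt1 was most like Meis1 (0.983), Ipo11 (0.976) and Hdac9 (0.973), and Tek most like Taf12 (0.989), Npr1 (0.978) and Septin8 (0.978). Kdr was nearest Gbp7 (0.963), Klhl4 (0.959) and Gvin1 (0.944), and Tie1 nearest Vsir (0.954), Cav1 (0.952) and Lta4h (0.946). Pecam1 was nearest Notch1 (0.949), Sorbs3 (0.944) and Cpm (0.941), and Angpt2 nearest Gnai3 (0.959), Mfsd14a (0.958) and Ap3s1 (0.958). Flt1 had Ehd1 (0.866), Max (0.860) and Adgrf5 (0.851), Vegfa had Rsrc2 (0.906), Tsc22d1 (0.901) and Cdc42ep2 (0.862), Angptl4 had Tut1 (0.920), Rrp12 (0.911) and Asxl1 (0.909), and Cdh5 had Rps18-ps6 (0.919), Sntb2 (0.898) and Llph-ps2 (0.896). The 2 genes nearest to Cdh5 that carry the suffix ps are pseudogenes whose reads can be shared with a parent gene.

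Of the other endothelial identity genes, 31 were tested beside 6 of the 10. This list and those below were drawn up with earlier results of these data known, so their counts are a description. Under B12, 9 rose and 0 fell after I/R, with a median log2 difference of 0.24 beside -0.02 over all genes, of which 6.78% were called higher and 3.62% lower. Averaged over water, 11 rose and 0 fell, with a median of 0.32 beside 0.05 over all genes, of which 8.36% were called higher and 1.71% lower. On normal water alone, 0 of 31 were called, with a median of 0.30 beside 0.13 over all genes. There, 8 of the 31 had an unadjusted p under 0.05, beside 11.7% of all genes. Sox17, a transcription factor of arterial endothelium, had 31.67, 59.05 and 54.71 FPKM in I/R+B12 hearts against 18.27, 19.17 and 16.36 FPKM in Sham+B12 hearts (log2 difference 1.34, SE 0.26, limma adjusted p = 0.0235). Cldn5, a tight-junction claudin, had 40.16, 112.95 and 85.84 FPKM in I/R+B12 hearts against 26.3, 29.04 and 29.27 FPKM in Sham+B12 hearts (1.35, SE 0.29, adjusted p = 0.0265). Klf4, a flow-responsive factor that many cell types use, had 30.28, 26.49 and 25.79 FPKM in I/R+B12 hearts against 10.76, 15.22 and 12.57 FPKM in Sham+B12 hearts (1.05, SE 0.20, adjusted p = 0.0226). All 3 genes had I/R+B12 libraries above every Sham+B12 library, as did 19.1% of all genes. The named genes of a list were picked by smallest p, so this separation is no further evidence. Averaged over water, the adhesion molecule Mcam rose by a log2 difference of 0.79 (adjusted p = 0.0176), the flow-responsive factor Klf2 by 0.57 (adjusted p = 0.0249) and the junction gene Esam by 0.50 (adjusted p = 0.0272). The count under B12 was 0 without I/R+B12 2 or any 1 Sham+B12 library, 5 without I/R 2 and 1 with no filter on low values. Without I/R+B12 1, 9 identity genes were called higher and 3 lower under B12, beside 1341 higher and 2492 lower of 12906 genes. The averaged count was 0 without I/R 1, I/R 2, Sham+B12 1, Sham+B12 3 or Sham 1, 3 without Sham 2, 4 without I/R+B12 2, 7 without Sham+B12 2 or Sham 3, 5 with median-ratio scaling and 3 with no filter. Without Sham+B12 1 or Sham+B12 3, 0 genes of the whole table were called under B12, while 49 were called when I/R+B12 2 was left out and 32 when Sham+B12 2 was, against 1352 with all libraries.

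Genes of activated endothelium were higher after I/R by larger differences, with calls under B12 and averaged over water only. On normal water alone, 0 of 14 were called, with a median log2 difference of 0.79 beside 0.13 over all genes. There, 1 of the 14 had an unadjusted p under 0.05, beside 11.7% of all genes. Of 14 tested, 7 rose under B12 with a median log2 difference of 2.20 (6.78% of all genes called higher, median -0.02). Averaged over water 9 rose with a median of 1.51 (8.36% of all genes called higher, median 0.05), and 0 fell in either. Plaur, the urokinase receptor, which leukocytes also express, had 26.39, 111.8 and 25.16 FPKM in I/R+B12 hearts against 1.99, 2.04 and 1.48 FPKM in Sham+B12 hearts (log2 difference 3.94, SE 0.79, limma adjusted p = 0.0236). Adamts9, a secreted metalloprotease, had 12.49, 28.38 and 8.56 FPKM in I/R+B12 hearts against 2.59, 3.7 and 3.68 FPKM in Sham+B12 hearts (1.86, SE 0.37, adjusted p = 0.0236). Icam1, a leukocyte adhesion molecule, had 22.85, 80.03 and 14.58 FPKM in I/R+B12 hearts against 6.22, 7.54 and 6.8 FPKM in Sham+B12 hearts (1.99, SE 0.50, adjusted p = 0.0361). In all 3 genes, again picked by smallest p, the groups were apart, as were 19.1% of all genes in that direction. In each of the 3, I/R+B12 2, the library with the highest neutrophil sum, was the highest of the 12. The part of neutrophils in these values was not tested. The count under B12 was 0 without I/R+B12 2 or any 1 Sham+B12 library, 2 without I/R 2, 4 without Sham 2, 4 with the replicate block, and 11 without I/R 3. The averaged count was 0 without I/R 1, I/R 2, Sham+B12 1, Sham+B12 3, Sham 1 or Sham 2, 4 without I/R+B12 2, 2 without Sham+B12 2, and 4 with median-ratio scaling. Both were 0 with no filter on low values.

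Further members of the growth factor and receptor families mostly missed the threshold. Of 7 other VEGF family genes, 1 rose under B12, beside 6.78% of all genes, with a list median of -0.29. Averaged over water 0 were called, and 2 had an unadjusted p under 0.05, beside 31.3% of all genes. That gene was Pgf, placental growth factor and a ligand of Flt1, with 19.41, 127.41 and 16.17 FPKM in I/R+B12 hearts against 4.86, 5.42 and 5.15 FPKM in Sham+B12 hearts (log2 difference 2.53, SE 0.63, limma adjusted p = 0.0353). It had 10.84, 9.28 and 5.28 FPKM in I/R hearts against 5.23, 5.75 and 13.15 FPKM in Sham hearts, where the groups overlapped. The Pgf call was lost without I/R+B12 2, I/R 2 or any 1 Sham+B12 library and with no filter on low values. Without I/R+B12 1, 1 gene of this list was called higher and 3 lower under B12, beside 1341 higher and 2492 lower of 12906 genes. The coreceptor Nrp1 had 32.33, 13.41 and 13.93 FPKM in I/R+B12 hearts against 36.73, 36.51 and 39.28 FPKM in I/R hearts (limma adjusted p = 0.095, not past the threshold), low in the same libraries as Tek and Angpt1. Of 9 genes of the TIE modulator and angiopoietin-like list, 0 rose and 1 fell under B12, beside 3.62% of all genes lower, and 0 rose and 1 fell averaged over water, beside 1.71%. Under B12 it was Angptl2, a secreted angiopoietin-like protein, with 21.43, 10.57 and 16.45 FPKM in I/R+B12 hearts against 39.05, 38.56 and 41.53 FPKM in Sham+B12 hearts (-1.30, SE 0.30, adjusted p = 0.0283). Averaged over water it was Svep1, an extracellular matrix protein and TIE1 ligand, at -0.41 (adjusted p = 0.0464). The first call was lost without I/R+B12 2 or any 1 Sham+B12 library, and the other without I/R+B12 2, I/R 1, I/R 2, Sham 1, Sham 2 or any 1 Sham+B12 library and with the replicate block. Both were lost with no filter. Under B12, 4 of the 9 genes were called lower with median-ratio scaling, beside 905 of 13001 genes. Without I/R+B12 1, 4 were called lower, beside 2492 of 12906 genes.

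Among 17 genes of Notch, tip cell and apelin signalling, 2 rose and 0 fell under B12, beside 6.78% of all genes called higher, and 1 rose averaged over water, beside 8.36%. Notch1, a receptor of arterial fate and of quiescent endothelium, had 9.73, 12.26 and 15.48 FPKM in I/R+B12 hearts against 7.19, 7.23 and 7.06 FPKM in Sham+B12 hearts, a log2 difference of 0.70 (SE 0.16, limma adjusted p = 0.0298). Its averaged difference was 0.48 (SE 0.12, adjusted p = 0.0332). Hes1, a target of Notch signalling, had 14.16, 23.51 and 14.04 FPKM in I/R+B12 hearts against 8.43, 8.32 and 9.27 FPKM in Sham+B12 hearts, a difference of 0.88 (SE 0.19, adjusted p = 0.0275). The calls under B12 were lost without I/R+B12 2 or any 1 Sham+B12 library. The averaged call was lost without I/R 1, I/R 2, Sham 1 or any 1 Sham+B12 library and with median-ratio scaling. All were lost with no filter. Without I/R+B12 1, 2 genes of the list were called higher and 2 lower under B12, beside 1341 higher and 2492 lower of 12906 genes. Of 14 cardiac capillary genes, 0 were called in either contrast, with medians of 0.09 under B12 and 0.03 averaged over water, and 2 under B12 and 1 averaged over water had an unadjusted p under 0.05, beside 32.3% and 31.3% of all genes. Without I/R+B12 1, 2 capillary genes were called higher and 4 lower under B12, beside 1341 higher and 2492 lower of 12906 genes. With median-ratio scaling 1 was called lower under B12, beside 905 of 13001 genes. Of 12 PPAR targets related to Angptl4, 1 fell averaged over water, beside 1.71% of all genes, the fatty acid oxidation gene Hadha at -0.46 (adjusted p = 0.0464). In that contrast 7 of the 12 had an unadjusted p under 0.05, all lower, beside 31.3% of all genes in either direction. Under B12 0 were called, and 3 had an unadjusted p under 0.05, all lower, beside 32.3% of all genes in either direction. No gene of that list was called lower without I/R+B12 2, I/R 1, I/R 2, any 1 Sham+B12 or any 1 Sham library, or with no filter. With Sham 3 and I/R 3 both left out, 0 genes of the list were called lower and 1 higher averaged over water, with a list median of -0.30. With all libraries the averaged list median was -0.44, while Angptl4 itself was at 0.26. Of 12 hypoxia targets 0 were called in either contrast, and 2 and 1 had an unadjusted p under 0.05, below the same shares of all genes. Without I/R+B12 1, 1 hypoxia target was called higher and 2 lower under B12, beside the same 1341 higher and 2492 lower of all genes. With all libraries the averaged median was 0.10. Between I/R+B12 and I/R, 0 genes of these lists were called, beside 0% of all genes, and 28.5% of all genes had an unadjusted p under 0.05. That threshold was passed by 4 of 7 VEGF family genes (1 higher and 3 lower), 3 of 9 genes of the TIE list and 4 of 17 Notch genes. It was also passed by 8 of 31 identity genes, 4 of 14 capillary genes, 3 of 14 activation genes, 2 of 12 PPAR targets and 2 of 12 hypoxia targets.

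**Figure D4:**
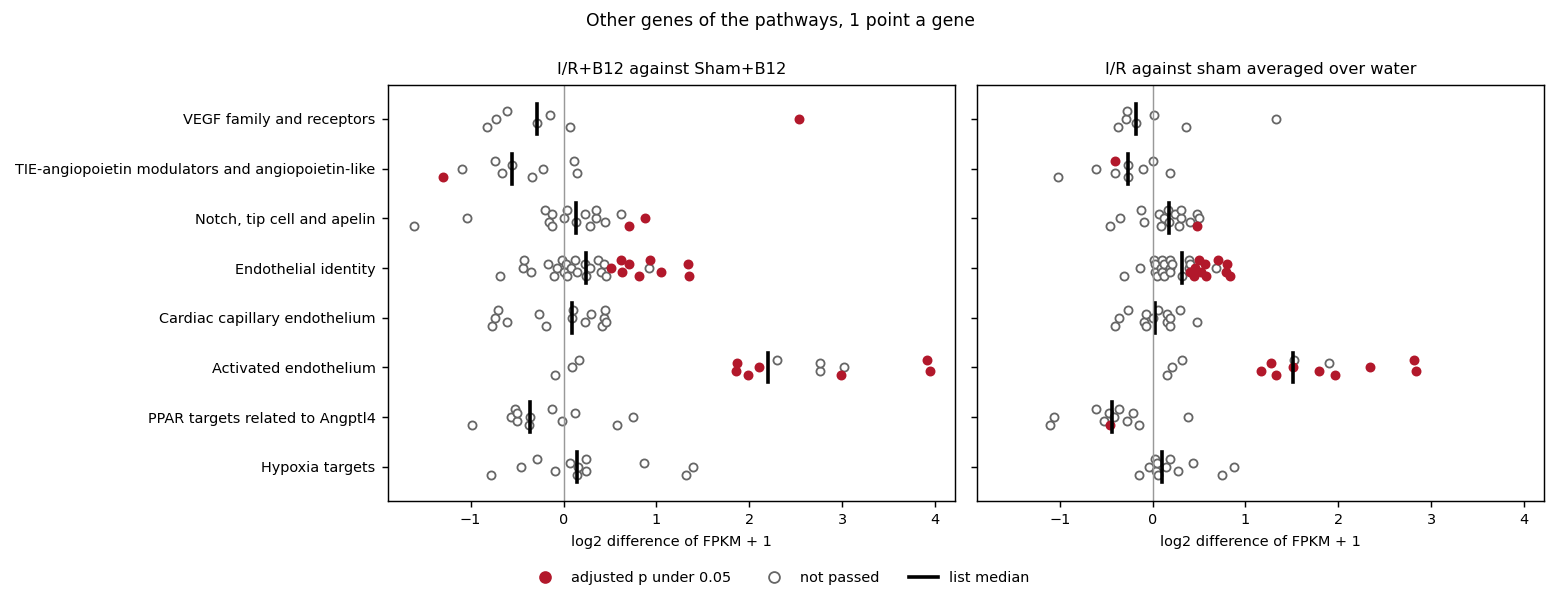
Log2 differences of FPKM + 1 for the other genes of 8 lists, 1 point a gene, in I/R+B12 against Sham+B12 (left) and in I/R against sham averaged over water (right). Filled points passed an adjusted p under 0.05 in limma and the line is the list median. Activated endothelium has medians of 2.20 and 1.51, endothelial identity 0.24 and 0.32.

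Markers of other vessel-lining and wall cells were also measured. Lymphatic markers (6 of 6 tested) summed to 61.3 to 92.7 FPKM in I/R+B12 hearts, 85.1 to 137 FPKM in I/R hearts, 93.4 to 122 FPKM in Sham+B12 hearts and 61.7 to 123 FPKM in Sham hearts. Endocardial markers (5 of 6 tested, Hapln1 not) summed to 31 to 51.9 FPKM in I/R+B12 hearts, 30.4 to 38.8 FPKM in I/R hearts, 50.2 to 72.4 FPKM in Sham+B12 hearts and 36 to 59.4 FPKM in Sham hearts. Fibroblast markers (10 of 10 tested) summed to 442 to 538 FPKM in I/R+B12 hearts, below 897 to 998 FPKM in I/R hearts, 557 to 719 FPKM in Sham+B12 hearts and 665 to 1002 FPKM in Sham hearts. Adipocyte markers summed to 0.04 to 2.61 FPKM in all libraries. The part of these cells in the endothelial values was not tested.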

How the data were processed

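Libraries were made from poly(A) RNA with a TruSeq kit and sequenced as paired ends, per the labels' protocols. The authors deposited 1 table of FPKM per gene. HISAT2, StringTie and the build mm10 are named, per the submitters' processing notes, with no version. The annotation release is not given in the sources used here, and coordinates were taken from GENCODE M21 on mm10 by gene ID. FPKM carries each library's composition, so a few abundant RNAs shift all other genes. From the deposited FPKM, log2(FPKM + 1) was fitted for genes with FPKM of at least 1 in at least 3 libraries, with limma 3.58.1 in R 4.3.3, 1 model for the 4 groups with 6 contrasts. The interaction contrast subtracts the I/R effect on normal water from that with B12. The code was tested on simulated data. Depth was estimated from the steps of low FPKM values, of which 82.3% to 88.8% lay within 0.15 of a whole fragment. The low values depend on an assumed fragment length, so no count model was run.

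The genes and lists were chosen with earlier results of these data known. Named genes are the 10, at most 4 genes of each list per contrast by smallest p, and the 3 genes with the highest r to each of the 10. Figf was matched to no row, and Angpt4, Angptl8, Stab2, Esm1, Ackr1 and Car9 did not pass the filter. Replicate numbers showed no clear pairing of the libraries. Deviations of same-numbered libraries had a mean r of 0.01 over 18 pairs (-0.41 to 0.39), with 4 over 0.1. Other pairs had a mean r of -0.01 over 36 pairs, with 9 over 0.1. These means do not show that no pairing existed. Alternatives were pseudocount 0.1, other filters, median-ratio scaling, a replicate block, library weights and left-out libraries. The authors' 4 group mean columns were not used. Figures were drawn with matplotlib 3.10.9.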

Additional observations from a re-analysis of the deposited data

Results flagged for a closer look

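Kdr had I/R differences of opposite sign in the fits with and without B12, neither of which passed the test. Its log2 difference was -0.30 for I/R+B12 against Sham+B12 and 0.37 for I/R against Sham, and the interaction was -0.67 (SE 0.28, limma adjusted p = 0.401). The difference between the waters did not pass after adjustment. Without Sham 3 and I/R 3 the normal-water difference was 0.063 and the interaction -0.37 (adjusted p = 0.701). No gene of the 13001 passed for the interaction, and 12.3% had an unadjusted p under 0.05. Vegfa, Angpt1, Tek and Tie1 also had opposite signs on the 2 waters, with interactions of -0.67, -1.58, -0.88 and -0.46. Only Kdr and Angptl4 are listed here because in them every I/R library also lay on its own side of the mean of its sham group.

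Angptl4 had a log2 difference of 1.32 for I/R+B12 against Sham+B12 and -0.80 for I/R against Sham, an interaction of 2.11 (SE 1.14, limma adjusted p = 0.433). The value on normal water rests on Sham 3 at 75.43 FPKM and I/R 3 at 2.89 FPKM. It turned to 0.95 without these 2 libraries, not past the threshold (limma adjusted p = 0.284). The interaction was then 0.37 (adjusted p = 0.818), and both differences were positive.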

How the results depend on the processing

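Of the settings other than leaving out 1 library, each changed 1 choice. With no filter on low values the genes called were 262 under B12, 274 averaged over water, 3 for Sham+B12 against Sham and 1 for the interaction, and 0 of the 10 were called in the averaged contrast (Angpt2 0.73, limma adjusted p = 0.068, and Pecam1 0.38, adjusted p = 0.0638). With a filter at 5 FPKM Angpt2 was not tested and 1 of the 10 was called in that contrast. Pseudocount 0.1 turned no direction of the 10 genes.

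Median-ratio scaling called 2 of the 10 under B12, with Angpt2 at 0.80 (adjusted p = 0.0404), 1 averaged over water, with Pecam1 lost at 0.31 (adjusted p = 0.0791), and 2 genes of all for I/R+B12 against I/R. The calls over all genes were 1018 higher and 905 lower under B12, against 882 and 470 without the scaling, and 612 and 530 averaged over water, against 1087 and 222. Directions turned for Pecam1 in I/R against Sham (-0.025), for Kdr (-0.035) and Tie1 (-0.024) averaged over water, for Angpt2 between I/R+B12 and I/R (0.15), and for Pecam1 (0.027) and Cdh5 (0.069) in Sham+B12 against Sham. The replicate block, with numbers that showed no clear pairing, called 2 of the 10 under B12, with Angpt2 at 0.78 (adjusted p = 0.0405), and 1057 genes under B12 and 1331 averaged over water.

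Estimated library weights ran from 0.194 for I/R+B12 1 to 5.056 for I/R 2. They called 2838 genes for I/R+B12 against I/R, 3052 for I/R against Sham, 2252 under B12 (1020 higher and 1232 lower), 3876 averaged over water (2426 higher and 1450 lower) and 132 for the interaction. Of the 10, they called 4 for I/R+B12 against I/R (Vegfa -0.67, Tek -1.04, Angpt1 -2.10 and Pecam1 0.52), 1 for I/R against Sham (Angpt2 0.84) and 2 under B12 (Pecam1 and Angpt1, the last at -1.49). They turned Angptl4 in I/R against Sham (0.24), Vegfa (-0.069), Kdr (-0.10) and Tie1 (-0.061) averaged over water, Tek (-0.027), Tie1 (-0.049) and Angpt1 (0.13) in Sham+B12 against Sham, and the Angpt2 interaction (-0.20). Without Sham 3 and I/R 3, 55 genes were called for I/R against Sham, 2320 averaged over water, 4 for I/R+B12 against I/R and 2 for the interaction, and 2 of the 10 under B12. This turned Angptl4 in I/R against Sham (0.95), Kdr averaged over water (-0.12), Kdr (-0.048), Tek (-0.086), Tie1 (-0.051), Angpt1 (0.034) and Angptl4 (0.21) in Sham+B12 against Sham, and the Flt1 interaction (-0.014). The causes of these changes were not tested.

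Leaving out each library in turn, the genes called ran from 0 to 3833 under B12, 0 to 2701 averaged over water, 0 to 4409 for I/R+B12 against I/R, 0 to 1840 for the interaction, 0 to 1 for I/R against Sham and 0 to 1 for Sham+B12 against Sham. Of the 10, 0 to 3 were called under B12, 0 to 3 averaged over water, 0 to 5 for I/R+B12 against I/R and 0 to 2 for the interaction. The 0 genes in the B12 contrast came without Sham+B12 1 and without Sham+B12 3, and the highest counts of the 10 came without I/R+B12 1, in both contrasts of I/R+B12. Ranges that crossed 0 were, averaged over water, Angpt1 -0.67 to 0.071, Angptl4 -0.056 to 0.74, Kdr -0.056 to 0.11, Tek -0.25 to 0.072, Tie1 -0.026 to 0.12 and Vegfa -0.035 to 0.25. For I/R against Sham Angptl4 ran from -1.43 to 0.16, under B12 Vegfa from -0.485 to 0.082, and between I/R+B12 and I/R Angpt2 from -0.15 to 0.15 and Cdh5 from -0.029 to 0.11. For Sham+B12 against Sham they were Angpt1 -0.33 to 0.050, Angpt2 -0.23 to 0.088, Angptl4 -1.21 to 0.21, Cdh5 -0.175 to 0.12, Kdr -0.048 to 0.29, Pecam1 -0.14 to 0.026, Tek -0.086 to 0.23 and Tie1 -0.051 to 0.22. For the interaction they were Angpt2 -0.12 to 0.27, Cdh5 -0.077 to 0.21 and Flt1 -0.13 to 0.16. Among the ratios, Tek to Tie1 for I/R against sham ran from -0.24 to 0.034.

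With 3 libraries a group, a difference that missed the threshold does not show that the groups were alike. FPKM of the angiopoietins rest on few fragments, down to an estimated 11.8 per kb for Angpt1.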
